A study of Mus musculus with 77 samples.

Results

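The retinas of mouse pups kept in room air were compared between postnatal day 12 (P12) and P17, the days around eye opening, to describe normal maturation without oxygen treatment. The arrays were chosen by their labels, normoxia and 1 of these 2 days, which gave 24 of the 77 retina arrays of the study, 12 for each day. The study followed oxygen-induced retinopathy in C57BL/6 mice, in which litters were randomized whole, and hyperoxia meant 75% oxygen while normoxia meant 21%. The normoxia pups stayed in the same kind of chamber as the hyperoxia pups, and both retinas of a mouse were pooled. The RNA of each mouse was hybridized together with universal mouse reference RNA on a 2-color array. Cages left the chambers on P12, so the P12 mice were collected straight from the chamber, while the P17 mice had since been kept in ordinary room air. Thus both groups consisted of C57BL/6 mice at 21% oxygen, aged 12 days or 17 days, and the difference in age cannot be told apart from the time out of the chamber. The litter of each mouse is not given, so an effect of the litter could not be taken out, and each mouse was treated as an independent replicate.

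At this age the mouse retina has nearly all of its neurons, and photoreceptors lengthen their outer segments, synapses of the plexiform layers mature and the deep vessel layers form. Rods turn light into a fall of cyclic GMP through transducin and phosphodiesterase, and guanylate cyclase restores cyclic GMP under the control of calcium-binding activator proteins. Photoreceptors use glucose largely by aerobic glycolysis, in which lactate is made and exported, while Mueller glia, the radial glia of the retina, take up transmitter and recycle it.

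By the labels the retina was in Cy5, but 3 genes that define rods, *Gnat1*, *Pde6b* and *Sag*, gave the stronger signal in Cy3 on 77 of 77 arrays. On the deposited scale, that of the processed signals, the lowest log2 ratio of an array was 4.18 for *Sag* and 4.46 for *Gnat1*. Cy3 was therefore taken as the retina. Unless another source is named, every value below is a log2 ratio of retina over reference recomputed from the raw signals, so that a positive difference means higher expression on P17. As the ratios were loess-normalized within each array, a level of 0 means a ratio typical of probes of that brightness on the array. It does not show equal expression in retina and reference, since genes not detected above background, such as *Ckm*, also lay near 0. The retina signal stood well above background for 17403 to 28853 probes on the P12 arrays (median 21099.5) and for 13765 to 27910 on the P17 arrays (median 20847). The 24 arrays lay on 9 of the 11 slides of the study, and 7 slides held both groups, with 12 P12 and 9 P17 arrays, while 3 P17 arrays lay on other slides. Comparisons were therefore repeated with the slide as a block and within these 7 slides.

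A group of 5 arrays stood apart from the other 19. They held 2 P12 and 3 P17 mice, and both P12 and 2 of the P17 mice lay on 1 slide. Their scores on the first principal component, which held 55.8% of the variance of 20605 probes, were 62.20 or higher, and the others lay between −44.20 and 8.10. The median correlation was 0.967 among the 5 arrays, 0.956 among the others and 0.855 between them. The mean level of the rod markers was 2.61 to 4.02 on the 5 arrays and 3.38 to 4.40 on the others. The mean level of the genes of cell division was −3.21 to −3.03 on the 5 arrays and −2.87 to −1.48 on the others. The part of these differences between arrays in the results was not tested. Both days were among them. In an alternative chosen after seeing the data they were left out, and its values are given beside called genes that lost their call and beside list medians that changed sign or moved by more than 0.05. On 2 other arrays, P17 replicates 76 and 8, the ratios were the least spread (SD 0.47 and 0.53).

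From P12 to P17, *Guca1a* and *Guca1b*, the activators of guanylate cyclase, 4 genes of glycolysis and lactate export, the metallothioneins *Mt1* and *Mt2* and the peptide *Cck* rose, and the tubulin *Tubb2b* and 3 other genes of immature neurons fell. In all, 419 of 55681 probes (0.753%) were differentially expressed, 210 higher and 209 lower on P17, by the moderated test of limma at an adjusted p under 0.05. Before adjustment, 3999 probes had a p under 0.05. The median absolute log2 change of the 419 probes was 0.43, and 27 of them changed by more than 1, of which 18 were higher. When each gene was represented by its brightest probe, 277 of 21154 genes were differentially expressed, 0.733% of all genes higher and 0.577% lower, and the median change of all genes was 0.00. At an unadjusted p under 0.05, 1068 of the 21154 genes were higher and 1017 lower. The unadjusted counts of the lists below stand beside these. With the slide as a block, 1.10% of the genes were higher and 1.03% lower. These shares were 1.58% and 1.12% in the authors' processed table, 2.19% and 1.39% with the retina channel alone, and 1.04% and 1.53% without the 5 arrays that stood apart. Without the 5 arrays that stood apart, 819 probes were differentially expressed, 304 higher and 515 lower, a share higher of 37.1% against 50.1% for all arrays. With no offset added to the signals, 263 were higher and 114 lower (69.8% higher). Of the 419 probes, 332 were also called in the same direction without the 5 arrays and 351 with the slide as a block.

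A set rule picked 118 genes, of which 49 were differentially expressed. On the 7 slides with both groups, 47 of these 49 had differences of 1 sign on every slide. The exceptions were *Col2a1*, lower on P17 on 6 slides, and *Gnb1*, higher on 6 slides. With the slide as a block, 48 of the 49 were still called, and *Sod3* was not. In 9 of the 49 genes the mice of the 2 days did not overlap, as in 0.0993% of all genes; these 49 were chosen as called, so their number is a description. As the retina was measured in bulk, fewer cells of a type and less RNA per cell cannot be told apart in any of these values.

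**Figure D1:**
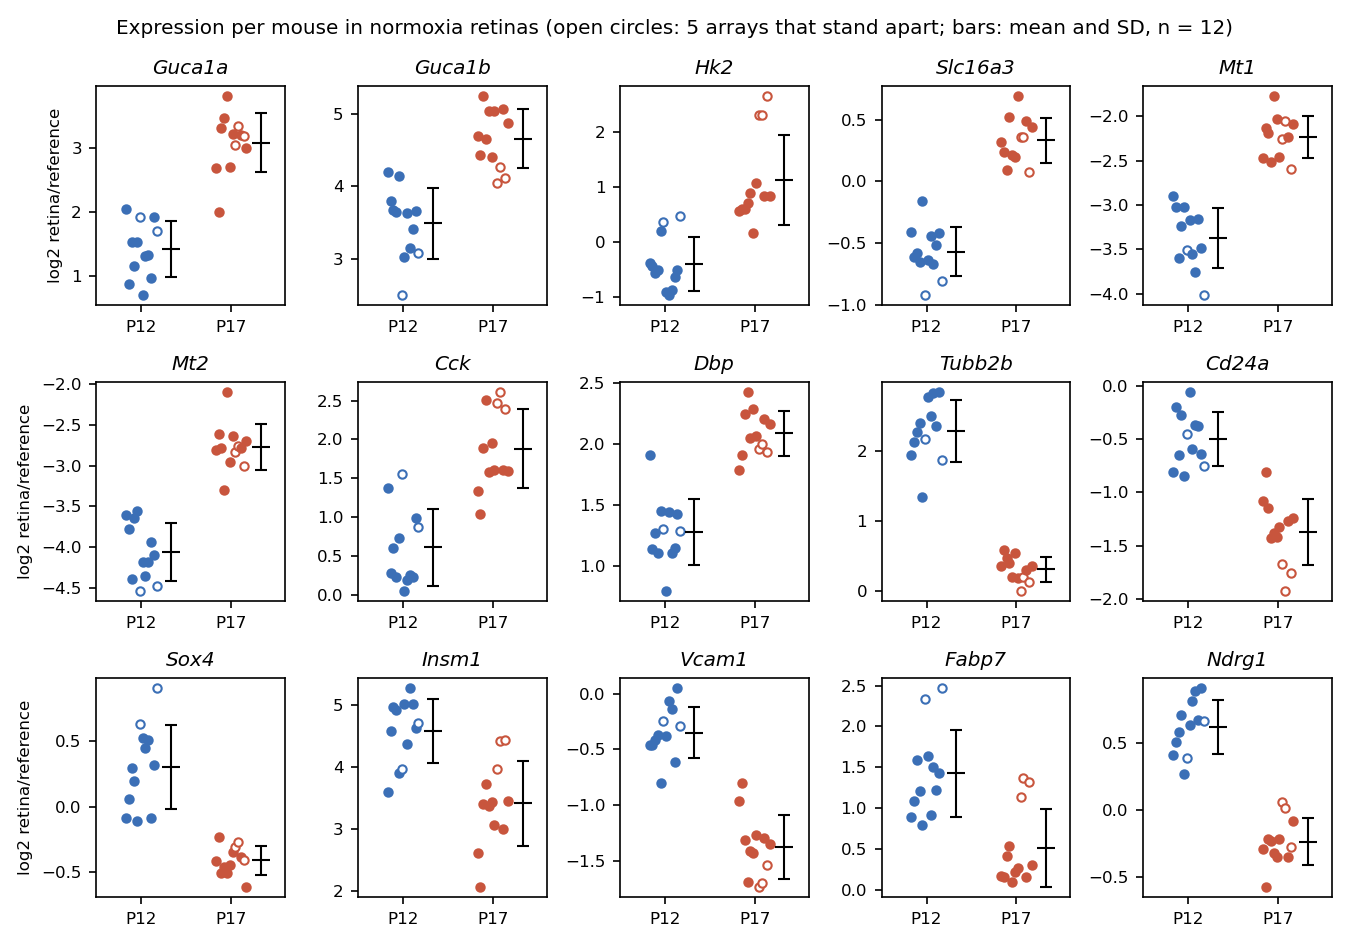
Log2 ratio of retina over reference (vertical axis) in each of 12 P12 and 12 P17 normoxia mice for 15 named genes. Each point is 1 mouse, open circles are the 5 arrays that stood apart, and bars are the mean and SD of the group. For *Tubb2b* the P17 mice lay between −0.01 and 0.58 and the P12 mice between 1.35 and 2.85.

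Among the markers of rod photoreceptors, the activators of guanylate cyclase rose most. Of 37 rod genes, 3 were higher and 0 lower, and the median change was 0.15 with the slide-wise medians between −0.06 and 1.07. Before adjustment, 7 rod genes were higher at p under 0.05 and 0 were lower. Without the 5 arrays that stood apart the median was 0.05, with 2 genes higher. The median was 0.27 with the slide as a block, with 4 higher, among them *Grk1*, a kinase of rods (0.75, adjusted p = 0.0182). The retina channel alone gave 10 higher and 1 lower (median 0.28). *Guca1a*, which encodes guanylate cyclase activating protein 1, ranged from 0.70 to 2.04 on P12 (median 1.44) and from 2.0 to 3.81 on P17 (median 3.20). Of the P17 mice, 11 of 12 lay above the highest P12 mouse, so that a single P17 mouse overlapped the P12 range. The log2 change was 1.66, a 3.16-fold rise (standard error 0.177, adjusted p = 8.86e-06), and 1.74 with the slide as a block. *Guca1b*, its paralog on the same chromosome 17, ranged from 2.49 to 4.2 on P12 (median 3.63) and from 4.05 to 5.25 on P17 (median 4.68). Here 10 of 12 P17 mice were above all P12 mice. The change was 1.17 (2.25-fold, standard error 0.178, adjusted p = 0.000683), and 1.25 with the slide as a block. In the reference channel the difference was 0.57 for *Guca1b* (unadjusted p = 4.11e-05) and 0.36 for *Guca1a* (unadjusted p = 0.0143), neither called after adjustment; a higher reference signal lowers the ratio.

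The third called rod gene was *Gnb1*, the beta subunit of rod transducin. It ranged from 1.58 to 2.53 on P12 (median 2.26) and from 1.99 to 2.91 on P17 (median 2.76), and 10 of 12 P17 mice lay above the highest P12 mouse. The change was 0.46 (1.38-fold, adjusted p = 0.0273) and 0.53 with the slide as a block (adjusted p = 0.00687). Without the 5 arrays it was 0.35 (adjusted p = 0.0993), and it was called in 16 of 24 fits that each left out 1 array (highest adjusted p 0.0586). With trend and robust estimation *Gnb1* was not called (0.46, adjusted p = 0.145). Its 1 other probe had the same sign and was not called, and 2 rod genes were higher with the median over the probes of a gene. *Gnat1*, the alpha subunit of rod transducin, lay between 4.12 and 7.19 on P12 (median 7.04) and between 5.43 and 8.10 on P17 (median 7.35). It was far above the reference on both days and the groups overlapped, with a change of 0.49 (adjusted p = 0.913), and 0.99 with the retina channel alone (adjusted p = 0.00405). *Nrl* and *Crx*, transcription factors of photoreceptor fate, had changes of −0.06 (adjusted p = 0.996) and −0.21 (adjusted p = 0.951).

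The promoter of *Guca1a* is shown since this gene had the largest called rise among the marker genes and since Crx acts on photoreceptor genes through a short homeobox core. The window lies at chr17:47400557-47400856 on the minus strand of GRCm38.p6 (RefSeq) and spans the start of the gene. The letters TAATCC, searched on both strands, were found once, on the other strand, and are in capitals as printed (GGATTA). Of 32851 mouse promoter windows of this kind, 7.06% hold at least 1 such match, so the match is a description only.
Guca1a: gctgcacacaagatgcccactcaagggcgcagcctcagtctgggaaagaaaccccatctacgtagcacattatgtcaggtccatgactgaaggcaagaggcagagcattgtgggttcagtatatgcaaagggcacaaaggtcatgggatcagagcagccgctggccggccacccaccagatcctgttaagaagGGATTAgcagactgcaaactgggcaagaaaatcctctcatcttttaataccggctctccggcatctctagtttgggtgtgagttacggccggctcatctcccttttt

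Of 15 cone photoreceptor genes, 1 was higher and 0 lower, the median was 0.22, and 5 were higher before adjustment. The called gene was *Gnat2*, the alpha subunit of cone transducin, with 2.99 to 3.56 on P12 (median 3.43) and 2.83 to 4.51 on P17 (median 4.11). The lowest mouse of all was a P17 mouse, yet 10 of 12 P17 mice lay above every P12 mouse. Its change was 0.64 (1.56-fold, adjusted p = 0.0336), and 0.70 with the slide as a block (adjusted p = 0.00387). The call was made in 11 of 24 fits that left out 1 array (highest adjusted p 0.0715), and without the 5 arrays the change was 0.51 (adjusted p = 0.155). *Gnat2* was not called with trend and robust estimation (0.64, adjusted p = 0.0916) or with an offset of 0 (0.67, adjusted p = 0.106). The cone list had a median of 0.05 and no called gene without the 5 arrays, and none was called in the processed table either (median 0.11). In contrast, 3 cone genes were called higher with the slide as a block (median 0.19) and 6 with the retina channel alone (median 0.26). The cone opsins *Opn1mw* and *Opn1sw* passed the test in 3 and 5 of 11 settings. *Opn1mw* had a change of 0.44 (adjusted p = 0.180), and 0.51 with the block (adjusted p = 0.0149), and 0.79 with the retina channel alone (adjusted p = 0.00305), with a positive difference on 7 of 7 slides. In the processed table its change was 0.11 (adjusted p = 0.976), and in the reference channel the difference was 0.36 (unadjusted p = 0.00155). *Opn1sw* had 0.22 (adjusted p = 0.0867) and 0.22 with the block (adjusted p = 0.0461), and 0.26 with the retina channel alone (adjusted p = 0.00234).

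Genes of glycolysis and lactate export came next. Of 21 genes, 4 were higher and 0 lower, the median change was 0.45, and 20 of 21 had a positive change. Before adjustment 16 of the 21 had a p under 0.05, all of them higher. The list median was above 0 on 7 of 7 slides (0.21 to 0.73). With the slide as a block, 9 genes were called, and 10 without the 5 arrays that stood apart, with medians of 0.46 and 0.51.

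*Hk2*, the hexokinase of the aerobic glycolysis of photoreceptors, ranged from −0.98 to 0.46 on P12 (median −0.52) and from 0.16 to 2.65 on P17 (median 0.83). All but 1 of the P17 mice lay above the highest P12 mouse, and the highest 3 were on arrays that stood apart. The change was 1.53 (2.89-fold, standard error 0.266, adjusted p = 0.00291), 1.38 with the slide as a block and 1.26 without the 5 arrays. *Slc16a3*, which encodes the lactate exporter MCT4, ranged from −0.92 to −0.16 on P12 (median −0.60) and from 0.08 to 0.69 on P17 (median 0.34). The 2 days did not overlap. Its change was 0.90 (1.87-fold, standard error 0.0761, adjusted p = 4.38e-07), and 0.93 with the slide as a block. The aldolase *Aldoc* ranged from 1.83 to 3.33 on P12 (median 2.73) and from 2.81 to 3.93 on P17 (median 3.73), and 9 of 12 P17 mice lay above all P12 mice. It rose by 0.88 (1.84-fold, adjusted p = 0.00860), or by 0.94 with the slide as a block. *Gpi1*, the isomerase that follows hexokinase, rose from a median of −0.16 to 0.42, a change of 0.52 (1.43-fold, adjusted p = 0.00258; 0.54 with the block), and 9 of 12 P17 mice were above every P12 mouse. With the retina channel taken alone, *Gpi1* was not called (0.44, adjusted p = 0.111). Of the other large differences, picked after their values were seen, *Pgk1* (0.72, adjusted p = 0.245), *Tpi1* (0.69, adjusted p = 0.472) and *Aldoa* (0.63, adjusted p = 0.229) were not called. *Ldha*, the lactate dehydrogenase subunit, overlapped completely, with medians of 0.52 and 0.45 and a change of 0.03 (adjusted p = 0.989).

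Of 16 genes of the hypoxia response, 3 were higher and 1 was lower, with a median of 0.04, which was 0.13 without the 5 arrays and 0.18 in the processed table. There were 3 higher and 2 lower with the slide as a block, 1 and 1 without the 5 arrays, 2 and 1 in the processed table, and 2 and 2 with the retina channel alone. *Ddit4*, an inhibitor of mTOR signaling, ranged from −0.49 to 0.58 on P12 (median 0.03) and from −0.08 to 1.19 on P17 (median 0.75). It overlapped in part, with 8 of 12 P17 mice above all P12 mice. The change was 0.67 (1.59-fold, adjusted p = 0.0231), 0.68 with the slide as a block, and 0.58 without the 5 arrays (adjusted p = 0.0910). *Bnip3*, a receptor for the removal of mitochondria, ranged from −2.15 to −1.06 on P12 (median −1.70) and from −1.32 to −0.60 on P17 (median −1.04). All 12 P17 mice were above the P12 median and 6 above the whole P12 range, a change of 0.62 (1.53-fold, adjusted p = 0.00533; 0.60 with the block). *Ankrd37* had a small change of 0.18 (adjusted p = 0.0128) that was called in 6 of 11 settings and not without the 5 arrays (0.18, adjusted p = 0.0551). The gene that fell was *Ndrg1*, from 0.27 to 0.91 on P12 (median 0.64) to −0.58 to 0.06 on P17 (median −0.26). All 12 P17 mice lay below the lowest P12 mouse. *Ndrg1* fell by 0.86 on the log2 scale (1.81-fold, standard error 0.0741, adjusted p = 5.17e-07), and by 0.85 with the slide as a block. *Vegfa*, the vascular growth factor, overlapped completely, with medians of −0.34 and −0.40 and a change of −0.06 (adjusted p = 0.975), and *Adm* was well above background on 3 P12 and 6 P17 arrays only.

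**Figure D2:**
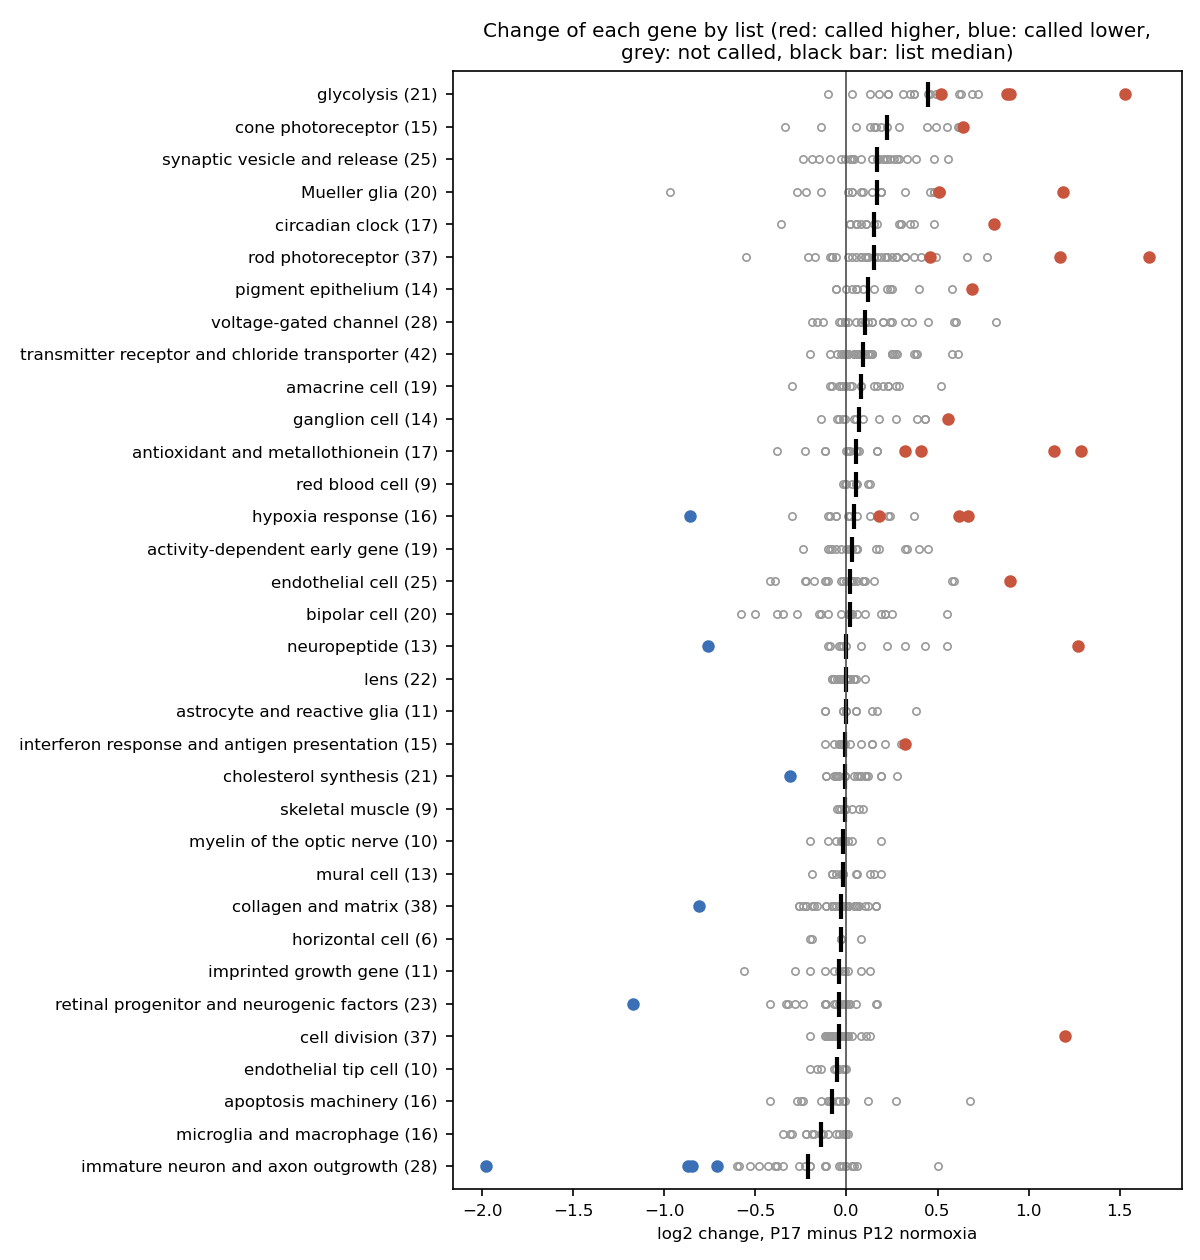
Log2 change from P12 to P17 in normoxia (horizontal axis) of each gene of 34 lists, with the number of genes of a list in parentheses. Each circle is 1 gene, red if called higher, blue if called lower and open grey if not called, and the black bar is the list median, which was highest for glycolysis (0.45) and lowest for immature neurons (−0.21).

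Genes of immature neurons and axon outgrowth held the most called falls of any list. Of 28 genes, 4 were lower and 0 higher, the median was −0.21, and 14 were lower and 1 higher at an unadjusted p under 0.05. The list median was below 0 on 6 of 7 slides (−0.50 to 0.01), and it was −0.31 without the 5 arrays, where 5 genes were lower. With the retina channel alone 7 were lower, and in the processed table there were 4 lower genes and 1 higher. *Tubb2b*, a beta-tubulin of growing neurites, ranged from 1.35 to 2.85 on P12 (median 2.32) and from −0.01 to 0.58 on P17 (median 0.33). The groups did not overlap. It fell by 1.98 on the log2 scale (3.95-fold, standard error 0.133, adjusted p = 5.03e-09), and the slide-wise differences ran from −2.66 to −1.32. Its 1 other probe was also called lower. With the median over the probes of a gene, however, the lowest change of the list was −1.42, so the size of this fall depended on the probe. *Cd24a*, a surface glycoprotein of immature neurons, ranged from −0.85 to −0.06 on P12 (median −0.52) and from −1.93 to −0.81 on P17 (median −1.35). All but 1 of the P17 mice were below all P12 mice. It fell by 0.87 on the log2 scale (1.83-fold, standard error 0.111, adjusted p = 9.25e-05), by 0.88 with the slide as a block and by 1.54 in the processed table.

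*Sox4*, a transcription factor of neuronal differentiation, ranged from −0.11 to 0.91 on P12 (median 0.31) and from −0.62 to −0.23 on P17 (median −0.42). Again no P17 mouse reached the P12 range. *Sox4* fell by 0.71 on the log2 scale (1.64-fold, adjusted p = 0.000158), by 0.75 with the slide as a block and by 1.19 in the processed table. *Nnat*, an imprinted gene of the developing nervous system, ranged from 1.18 to 2.90 on P12 (median 1.95) and from 0.75 to 1.90 on P17 (median 1.01). It overlapped in part, with 9 of 12 P17 mice below all P12 mice, and fell by 0.85 on the log2 scale (1.81-fold, adjusted p = 0.00666; by 0.81 with the block). In the reference channel its difference was −0.41 (unadjusted p = 0.00430). In the authors' processed table its change was −0.21 (adjusted p = 0.942), and −0.55 with an offset of 0 (adjusted p = 0.599). *Gap43*, a growth cone protein, had a change of −0.60 (adjusted p = 0.0899), and *Marcksl1* of −0.59 (adjusted p = 0.186), both picked after their values were seen. *Dcx*, a marker of newborn neurons, was well above background on 10 P12 and 6 P17 arrays, with medians of 0.29 and 0.14. Its change was −0.20 (adjusted p = 0.713), and −0.39 with the retina channel alone (adjusted p = 0.00639). *Sox11*, of the same family as *Sox4*, had medians of 0.02 and −0.05 (change −0.11, adjusted p = 0.542).

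Of 23 factors of retinal progenitors and neurogenesis, 1 was lower and 0 higher (median −0.04). Blocking on the slide gave 2 lower, the second being *Prdm1* (−0.47, adjusted p = 0.00644), and 2 were lower without the 5 arrays and with the retina channel alone. The called gene was *Insm1*, a zinc finger factor of newly formed neurons, with 3.60 to 5.28 on P12 (median 4.68) and 2.06 to 4.44 on P17 (median 3.42). The groups overlapped, with 8 of 12 P17 mice below all P12 mice and the highest 3 P17 mice on arrays that stood apart. *Insm1* fell by 1.17 on the log2 scale (2.25-fold, standard error 0.241, adjusted p = 0.0151), by 1.16 with the slide as a block and by 1.50 without the 5 arrays. In the processed table its change was −0.22 (adjusted p = 0.945) and with an offset of 0 it was −0.57 (adjusted p = 0.557). *Fgf15*, a growth factor of progenitors, was not well above background on any array. Among 37 genes of cell division, 1 was higher and 0 lower. The median was −0.04 and turned to 0.10 without the 5 arrays. The called gene was *Spc25*, a kinetochore subunit, with −0.25 to 1.36 on P12 (median 0.35) and 1.22 to 2.19 on P17 (median 1.49). With 8 of 12 P17 mice above all P12 mice, it rose by 1.20 (2.29-fold, standard error 0.173, adjusted p = 0.000393), or by 1.15 with the slide as a block. No other cell division gene was called. Of the 37 changes 29 were negative, while 31 were positive without the 5 arrays. *Mki67* was well above background on 3 P12 and 4 P17 arrays only (medians −3.77 and −3.94), and *Top2a* on no array. No gene was called by limma among 16 genes of apoptosis (median −0.08; 3 higher and 4 lower at an unadjusted p under 0.05) and 11 imprinted growth genes (median −0.04; 0 higher and 1 lower). Calls among the genes of apoptosis varied with the setting. With the slide as a block 2 were lower, *Bbc3* (−0.48, adjusted p = 0.0123) and *Bak1* (−0.25, adjusted p = 0.0301), and 2 were lower without the 5 arrays. There were 2 higher and 3 lower in the processed table, and as many with the retina channel alone. Of the imprinted genes, 1 was lower without the 5 arrays and 1 with the retina channel alone. *Apaf1* had medians of −0.24 and −0.21, and *Igf2* of −0.07 and −0.08.

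Of 20 genes of Mueller glia, 2 were higher and 0 lower, and the median of 0.17 became 0.02 without the 5 arrays, where 2 were higher and 1 lower. There were 4 higher with the slide as a block, and the retina channel alone gave 6 higher and 1 lower. The lowest change of the list was that of *Crym*, −0.97 (adjusted p = 0.0716). *Clu*, which encodes the secreted chaperone clusterin, ranged from 1.62 to 3.29 on P12 (median 2.27) and from 2.90 to 3.92 on P17 (median 3.65). The upper 9 of 12 P17 mice were above all P12 mice. The change was 1.19 (2.28-fold, standard error 0.173, adjusted p = 0.000429), and 1.22 with the slide as a block. *Prdx6*, a peroxiredoxin, rose from a median of −0.56 to 0.04 (0.51, 1.42-fold, adjusted p = 0.00332; 0.46 with the block), with all 12 P17 mice above the P12 median. Of its 3 other probes, 0 were called and 2 had the same sign. With the median over the probes of a gene, 1 gene of the list was higher and 1 lower. *Glul*, the glutamine synthetase of Mueller glia, had medians of 4.61 and 5.04. Its change was 0.48 (adjusted p = 0.254), and 0.59 with the slide as a block (adjusted p = 0.0359), with a positive difference on 7 of 7 slides. With the retina channel alone it was 0.62 (adjusted p = 0.00157). *Rlbp1*, a retinoid carrier of these cells, had 0.19 (adjusted p = 0.969). Of 11 markers of astrocytes and reactive glia, none was called by limma and none had an unadjusted p under 0.05 (median 0.00). *Gfap*, an intermediate filament of astrocytes, lay between −0.03 and 0.34 on P12 (median 0.09) and between 0.00 and 0.55 on P17 (median 0.16), and the brightest probe of the astrocyte factor *Pax2* was not well above background on any array.

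No marker of microglia and macrophages was called by limma among 16 genes, with 0 higher and 4 lower at an unadjusted p under 0.05. The median was −0.14, and 14 of 16 changes were negative. The median was below 0 on 6 of 7 slides, and −0.08 without the 5 arrays. With the slide as a block, *Aif1* was called lower (−0.22, adjusted p = 0.0241). Of the 16, 3 were called lower in the processed table (median −0.34), and 4 with the retina channel alone (median −0.17). The chemokine receptor *Cx3cr1* had medians of 0.70 and 0.50 (change −0.22, adjusted p = 0.872), and *P2ry12* was well above background on 2 P12 arrays and 1 P17 array.

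Of 25 endothelial genes, 1 was higher and 0 lower (median 0.02). The slide as a block added *Cd34*, called lower (−0.36, adjusted p = 0.0368). There were 2 higher without the 5 arrays (median −0.01) and in the processed table, and 3 higher and 1 lower with the retina channel alone. The called gene was *Ly6c1*, a surface protein of vessels, with −4.46 to −2.73 on P12 (median −3.15) and −3.20 to −1.46 on P17 (median −2.17). The groups overlapped, with 9 of 12 P17 mice above all P12 mice and 10 above the P12 median. *Ly6c1* rose by 0.90 (1.86-fold, adjusted p = 0.0303) and by 0.97 with the slide as a block (adjusted p = 0.000923), by 1.59 in the processed table, and was called in 14 of 24 fits that left out 1 array (highest adjusted p 0.0594). Its 1 other probe had the same sign and was not called. With the median over the probes of a gene, 0 endothelial genes were called, and the highest change of the list was 0.58. *Pecam1* had medians of −0.05 on both days. *Cldn5*, a tight junction protein, had medians of 1.79 and 1.58 and a wide spread (0.76 to 2.88 on P12). No gene was called by limma among 10 tip cell genes (median −0.05; 0 higher and 1 lower unadjusted) and 13 mural cell genes (median −0.02; 1 higher and 1 lower unadjusted). The mural median was 0.04 without the 5 arrays. With the retina channel alone 1 gene of each was called lower, and 1 tip cell gene was called lower in the processed table. The tip cell genes *Apln* and *Esm1* had changes of −0.20 (adjusted p = 0.727; −0.04 without the 5 arrays) and −0.06 (adjusted p = 0.987), and *Esm1* was well above background on 0 P12 arrays and 1 P17 array. *Apln* was so on 7 P12 and 5 P17 arrays. The mural genes *Pdgfrb* and *Rgs5* had 0.15 (adjusted p = 0.661) and 0.06 (adjusted p = 0.987).

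Of 14 markers of the pigment epithelium, the layer behind the retina, 1 was higher and 0 lower. The median was 0.12, above 0 on 7 of 7 slides (0.01 to 0.51), and 0.04 without the 5 arrays. The called gene was *Enpp2*, which encodes autotaxin, with −0.49 to 0.42 on P12 (median −0.08) and 0.21 to 1.34 on P17 (median 0.48). Of the P17 mice 8 of 12 lay above all P12 mice, and the change was 0.69 (1.62-fold, adjusted p = 0.0108; 0.61 with the block). *Rpe65*, a visual cycle enzyme that defines this layer, had medians of 0.71 and 1.27 (change 0.58, adjusted p = 0.329), and *Ttr* had 1.92 and 2.21 (change 0.09, adjusted p = 0.987). The mean level of the list lay between 0.21 and 0.92 on P12 and between 0.26 and 1.31 on P17, and its part in the other results was not tested. Lens genes were high in single mice of both days. *Cryaa*, the lens alpha-crystallin, had medians of 0.34 and 0.31 but reached 3.57 in a P12 mouse and 3.56 in a P17 mouse, and 2.33 and 2.51 in the next highest mouse of each day. *Crygs* was highest in the same 2 mice, with medians of 0.14 and 0.19 and maxima of 1.53 and 2.24. By limma no gene was called among 22 lens genes (median 0.00; 0 unadjusted), 9 red blood cell genes (median 0.05; 2 higher and 0 lower unadjusted), 10 myelin genes (median −0.02; 1 higher and 0 lower) and 9 skeletal muscle genes (median −0.01; 0 unadjusted). Without the 5 arrays the lens median was 0.06 and the muscle median 0.04. A single myelin gene was called higher in the processed table. *Hba-a1*, an alpha-globin, had medians of 1.31 and 1.75 (change 0.13, adjusted p = 0.964), and *Hbb-b1* of 0.07 and 0.09. *Mbp* of myelin had medians of 0.22 and 0.21. The muscle gene *Ckm* was not well above background on any array, and *Acta1* was so on 5 P12 and 6 P17 arrays.

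The calls among genes of inner retinal neurons and synapses stand beside shares of 0.733% higher and 0.577% lower over all genes. Of 14 ganglion cell genes, 1 was higher and 0 lower, and the median of 0.07 turned to −0.01 without the 5 arrays, while 3 were higher with the retina channel alone. The called gene was *Thy1*, a surface glycoprotein of these cells, with 0.81 to 1.81 on P12 (median 1.28) and 1.41 to 2.16 on P17 (median 1.93). Of the P17 mice, 7 of 12 were above all P12 mice and all 12 were above the P12 median. *Thy1* rose by 0.56 (1.48-fold, adjusted p = 0.00860), or by 0.57 with the slide as a block. *Rbpms* and *Pou4f1*, which mark the same cells, had changes of −0.14 (adjusted p = 0.961) and 0.05 (adjusted p = 0.987). By limma no gene was called among 20 bipolar (median 0.02; 1 higher and 2 lower unadjusted), 19 amacrine (median 0.08; 1 higher and 0 lower) and 6 horizontal cell genes (median −0.03; 0 higher and 1 lower). The bipolar median turned to −0.12 without the 5 arrays, where 2 of the genes were called lower, while with the slide as a block *Gng13* was called higher (0.69, adjusted p = 0.00716). The processed table gave 1 bipolar gene called higher. With the retina channel alone, 1 bipolar gene was higher and 1 lower, 1 amacrine gene was higher and 1 horizontal cell gene was lower. *Grm6* and *Trpm1*, receptor and channel of ON bipolar cells, had medians of 4.43 and 4.29 and of 3.30 and 3.20. The amacrine genes *Gad1* and *Slc6a9* had changes of 0.52 (adjusted p = 0.786) and 0.23 (adjusted p = 0.673). *Lhx1* and *Calb1* of horizontal cells were well above background on at most 4 arrays of a group.

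Nor was a gene called by limma among 25 genes of synaptic vesicles and release, 42 transmitter receptors and chloride transporters, 28 voltage-gated channels and 19 activity-dependent early genes. Their medians were 0.17, 0.09, 0.10 and 0.03. Before adjustment, 3, 2, 7 and 3 genes of these lists were higher and 0, 1, 0 and 0 were lower. Without the 5 arrays the medians were 0.05, 0.01, 0.02 and 0.09, with 1, 1, 0 and 1 genes called higher. With the slide as a block, *Dnm1* of vesicle recycling (0.34, adjusted p = 0.0359), the GABA receptor subunit *Gabrr2* (0.49, adjusted p = 0.0494), *Slc12a5* and the early gene *Dusp1* (0.34, adjusted p = 0.0150) were called higher. The processed table gave 0, 1, 1 and 3 higher genes in these lists and the retina channel alone 2, 4, 6 and 2, with none lower. *Slc12a5*, the chloride exporter of mature neurons, lay between 4.48 and 5.19 on P12 (median 4.91) and between 4.36 and 6.10 on P17 (median 5.55). Its change was 0.58 (adjusted p = 0.0768), and 0.59 with the slide as a block (adjusted p = 0.0123), with a positive difference on 7 of 7 slides, and it was called in 8 of 11 settings. The chloride importer *Slc12a2* had medians of −0.20 and −0.11. The sodium channel *Scn1a* of mature neurons had medians of 1.70 and 2.38 (change 0.60, adjusted p = 0.546; 0.55 with the retina channel alone, adjusted p = 0.000216, and 0.36 without the 5 arrays, adjusted p = 0.658), and its fetal counterpart *Scn3a* had 1.82 and 1.57 (change −0.16, adjusted p = 0.956). The NMDA receptor subunits *Grin2a* and *Grin2b* had medians of 0.13 and 0.17 and of 0.39 and 0.38. *Syp* and *Slc17a7*, vesicle proteins, had changes of −0.15 (adjusted p = 0.983) and 0.29 (adjusted p = 0.872). The early gene *Fos* had 0.33 (adjusted p = 0.721), but it was called in the processed table (1.65, adjusted p = 6.63e-05) and with the retina channel alone (0.42, adjusted p = 0.000109). It was well above background on 5 P12 and 11 P17 arrays. *Egr1* had 0.45 (adjusted p = 0.344), and 0.73 in the processed table (adjusted p = 0.0373), while *Bdnf* and *Npas4* had 0.06 (adjusted p = 0.964) and 0.16 (adjusted p = 0.774).

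Of 13 neuropeptide genes, 1 was higher and 1 lower (median 0.00). With the retina channel alone 2 were higher and 1 lower. *Cck*, cholecystokinin, ranged from 0.04 to 1.55 on P12 (median 0.44) and from 1.04 to 2.61 on P17 (median 1.75), and was well above background on 10 P12 and 12 P17 arrays. Only 2 of 12 P17 mice lay within the P12 range. The change was 1.27 (2.41-fold, standard error 0.200, adjusted p = 0.00108), 1.28 with the slide as a block and 2.23 in the processed table. *Npy*, a peptide of amacrine cells, ranged from 0.79 to 2.66 on P12 (median 1.65) and from 0.20 to 1.61 on P17 (median 0.93). The groups overlapped, with 4 of 12 P17 mice below all P12 mice. *Npy* fell by 0.76 on the log2 scale (1.69-fold, adjusted p = 0.0369), or by 0.72 with the slide as a block. This call was made in 8 of 24 fits that left out 1 array (highest adjusted p 0.0779), was lost without the 5 arrays (−0.80, adjusted p = 0.0723) and was lost in the processed table (−0.58, adjusted p = 0.816) and with an offset of 0 (−0.80, adjusted p = 0.363). *Vip* was well above background on 3 P12 and 4 P17 arrays.

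Of 17 genes of the circadian clock, 1 was higher and 0 lower, the median was 0.15, and 8 were higher before adjustment. The processed table gave 4 higher (median 0.36), the retina channel alone 3, and the fit without the 5 arrays 2 (median 0.08). The block fit called 2 higher, *Dbp* and *Bhlhe40* (0.38, adjusted p = 0.00689). The hour of collection is not given in the labels. *Dbp*, a clock output factor, ranged from 0.79 to 1.91 on P12 (median 1.28) and from 1.79 to 2.43 on P17 (median 2.06). All but 2 of the P17 mice were above every P12 mouse. It rose by 0.81 (1.75-fold, standard error 0.0919, adjusted p = 2.03e-05), or by 0.82 with the slide as a block. *Nr1d1* and *Per2* of the core loop had changes of 0.30 (adjusted p = 0.631) and 0.11 (adjusted p = 0.565).

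Metallothioneins, small proteins that bind zinc and copper, were among the genes without overlap between the days. Of 17 antioxidant and metallothionein genes, 4 were higher and 0 lower (median 0.05, above 0 on 7 of 7 slides). *Mt2* ranged from −4.54 to −3.55 on P12 (median −4.14) and from −3.30 to −2.10 on P17 (median −2.78). *Mt1*, its neighbor on chromosome 8, ranged from −4.02 to −2.90 on P12 (median −3.36) and from −2.59 to −1.77 on P17 (median −2.21). The ratios of both stayed below 0 on all arrays, and in both every P17 mouse was above every P12 mouse. *Mt2* rose by 1.29 (2.44-fold, standard error 0.127, adjusted p = 3.91e-06; 1.34 with the block). *Mt1* rose by 1.14 (2.20-fold, standard error 0.116, adjusted p = 5.03e-06; 1.20 with the block). *Srxn1*, sulfiredoxin, rose from a median of −0.48 to −0.10 (0.41, 1.33-fold, adjusted p = 0.00152; 0.35 with the block), with all 12 P17 mice above the P12 median. *Sod3*, the extracellular superoxide dismutase, was well above background on 10 P12 and 12 P17 arrays, with a change of 0.32 (adjusted p = 0.0232) and 11 of 12 P17 mice above the P12 median. In the processed table the change was 1.20 (adjusted p = 0.000268). It was not called with the slide as a block (0.31, adjusted p = 0.0869) or in 1 fit over 6 groups (0.32, adjusted p = 0.232). The call was also lost without 1 of the P12 mice (0.31, adjusted p = 0.0514).

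The promoters of *Mt1* and *Mt2* are shown since both genes rose together, and metallothionein genes are known to respond to metal through short elements bound by MTF1. The windows lie at chr8:94178839-94179138 for *Mt1* and chr8:94172368-94172667 for *Mt2*, on the plus strand of GRCm38.p6 (RefSeq). The core TGCACNC or TGCGCNC, searched on both strands, is in capitals. It was found 3 times for *Mt1*, all as printed, and 4 times for *Mt2*, 2 of them on the other strand. Of the 32851 promoter windows, 25.7% hold at least 1 match, 7.11% at least 2 and 1.97% at least 3. A match says only that the letters are there.
Mt1: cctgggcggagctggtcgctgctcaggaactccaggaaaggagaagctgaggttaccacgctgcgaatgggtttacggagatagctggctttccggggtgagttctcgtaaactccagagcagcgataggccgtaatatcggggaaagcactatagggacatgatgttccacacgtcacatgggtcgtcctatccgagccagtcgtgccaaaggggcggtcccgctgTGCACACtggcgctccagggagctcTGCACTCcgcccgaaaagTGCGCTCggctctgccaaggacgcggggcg
Mt2: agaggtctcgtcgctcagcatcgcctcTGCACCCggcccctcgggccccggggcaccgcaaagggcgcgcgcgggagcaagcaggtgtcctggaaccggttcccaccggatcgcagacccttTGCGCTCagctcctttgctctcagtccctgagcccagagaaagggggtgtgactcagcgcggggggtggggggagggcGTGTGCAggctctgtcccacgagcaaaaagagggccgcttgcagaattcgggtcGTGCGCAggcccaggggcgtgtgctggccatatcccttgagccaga

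In 3 further lists a single gene was called. Among 15 genes of the interferon response and antigen presentation, 1 was higher and 0 lower (median −0.01, and 0.16 without the 5 arrays). There were 2 higher in the processed table (median 0.20) and with the retina channel alone. *Ifit3*, an interferon-induced gene, had medians of −0.48 and −0.18 and a change of 0.32 (1.25-fold, adjusted p = 0.00164; 0.35 with the block). It was well above background on 8 P12 and 10 P17 arrays, and 11 of 12 P17 mice were above all P12 mice. In the processed table, which adds no offset, the change was 1.33. *B2m* and *H2-K1* of class I antigen presentation had changes of 0.14 (adjusted p = 0.973) and 0.30 (adjusted p = 0.645). *H2-K1* was called in the processed table (0.48, adjusted p = 0.00149). Among 38 collagen and matrix genes, 0 were higher and 1 was lower (median −0.03, 0.04 without the 5 arrays). None was called in the processed table, while 2 were lower with the slide as a block, the second being *Ncan* (−0.21, adjusted p = 0.0494), and 2 with the retina channel alone. *Col2a1*, the collagen of vitreous and cartilage, ranged from 2.45 to 3.75 on P12 (median 3.58) and from 1.50 to 3.16 on P17 (median 2.63). The groups overlapped, with 3 of 12 P17 mice below all P12 mice. *Col2a1* fell by 0.81 on the log2 scale (1.75-fold, adjusted p = 0.0201), or by 0.72 with the slide as a block (adjusted p = 0.0362). It was not called in the processed table (−0.46, adjusted p = 0.854) or with an offset of 0 (−0.60, adjusted p = 0.640). *Col1a1* and *Col4a1* had changes of 0.01 (adjusted p = 0.999) and −0.22 (adjusted p = 0.842; −0.03 without the 5 arrays).

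Among 21 genes of cholesterol synthesis, 0 were higher and 1 was lower (median −0.01, and 0.07 without the 5 arrays). *Mvk*, mevalonate kinase, had medians of 0.48 and 0.23 and fell by 0.31 on the log2 scale (1.24-fold, adjusted p = 0.0395; by 0.34 with the block, adjusted p = 0.00261). Of the P17 mice, 10 of 12 were below all P12 mice, and the call was made in 9 of 24 fits that left out 1 array (highest adjusted p 0.0776). With an offset of 0 the change was −0.33 (adjusted p = 0.150), and with trend and robust estimation it was −0.31 (adjusted p = 0.0851). *Sqle*, squalene epoxidase, had a change of −0.06 (adjusted p = 0.955).

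Many of the largest rises were of genes outside the lists. *Pdzph1*, a gene named for its PDZ and pleckstrin homology domains, had the largest called rise of all genes. It ranged from 0.09 to 2.79 on P12 (median 1.93) and from 2.32 to 5.02 on P17 (median 4.14). Of the P17 mice, 10 of 12 were above all P12 mice. The change was 1.99 (3.96-fold, standard error 0.313, adjusted p = 0.00109), 2.03 with the slide as a block and 1.60 without the 5 arrays. However, it was not called in the processed table (1.14, adjusted p = 0.702) or with an offset of 0 (1.65, adjusted p = 0.151). *Tnfaip3*, which encodes the NF-kappaB inhibitor A20, ranged from 0.60 to 1.66 on P12 (median 1.35) and from 1.72 to 3.19 on P17 (median 2.49). There was no overlap, and the change was 1.33 (2.51-fold, standard error 0.160, adjusted p = 4.16e-05; 1.31 with the block). *Ccn4*, a matrix protein of the Wnt pathway, ranged from −1.06 to −0.13 on P12 (median −0.86) and from 0.03 to 1.45 on P17 (median 0.21). All P17 mice were above all P12 mice here as well, with a change of 1.18 (2.27-fold, standard error 0.153, adjusted p = 0.000104; 1.07 with the block).

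The kinase gene *Stk35* rose by 1.41 (2.65-fold, adjusted p = 4.29e-05; 1.51 with the block), from a median of 2.08 to 3.49. *Gpsm2*, a regulator of G protein signaling and spindle orientation, rose by 1.38 (2.61-fold, adjusted p = 1.46e-05; 1.38 with the block), from a median of 0.25 to 1.54. In each of these 2 genes, 11 of 12 P17 mice lay above the highest P12 mouse. The water channel *Aqp1* rose by 1.20 (2.29-fold, adjusted p = 0.00234; 1.12 with the block), from a median of −0.64 to 0.60, with 8 of 12 P17 mice above all P12 mice. *Rskr*, a kinase gene, rose by 1.21 (2.32-fold, adjusted p = 0.00860; 1.25 with the block), from a median of 0.77 to 2.09. Its P17 mice were spread from 0.35 to 2.98, and 2 of 12 lay below the P12 median. The potassium channel *Kcnj14* rose by 1.16 (2.24-fold, adjusted p = 0.00243; 1.19 with the block), from a median of 1.12 to 2.39, with 10 of 12 P17 mice above all P12 mice. In the reference channel its difference was 0.39 (unadjusted p = 0.00627). *Kcnj14* was not called in the processed table (0.48, adjusted p = 0.869) or with an offset of 0 (0.91, adjusted p = 0.277).

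Among the falls outside the lists, *Vcam1*, a cell adhesion molecule, ranged from −0.80 to 0.05 on P12 (median −0.38) and from −1.74 to −0.80 on P17 (median −1.38). The ranges met at a single mouse, with 11 of 12 P17 mice below all P12 mice. It fell by 1.03 on the log2 scale (2.04-fold, standard error 0.103, adjusted p = 4.42e-06), by 1.08 with the slide as a block and by 1.55 in the processed table. *Ttyh2*, of the tweety family of membrane proteins, had medians of 2.85 and 1.50 and fell by 1.13 (2.19-fold, adjusted p = 0.000151; by 1.08 with the block), with 7 of 12 P17 mice below all P12 mice. *Trib1*, a pseudokinase, had medians of 1.38 and 0.17 and fell by 1.12 (2.17-fold, adjusted p = 0.00154; by 1.18 with the block), with 10 of 12 P17 mice below all P12 mice. *Fabp7*, the fatty acid binding protein of radial glia and astrocytes, ranged from 0.79 to 2.47 on P12 (median 1.33) and from 0.09 to 1.37 on P17 (median 0.28). On both days its highest mice were on arrays that stood apart. *Fabp7* fell by 0.91 (1.88-fold, adjusted p = 0.0256), by 1.02 with the slide as a block and by 0.97 without the 5 arrays. In the processed table it fell by 2.53. The call was made in 20 of 24 fits that left out 1 array (highest adjusted p 0.0523).

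*Hmgn2*, a nucleosome binding protein, ranged from 1.91 to 2.38 on P12 (median 2.20) and from 0.97 to 1.82 on P17 (median 1.51), without overlap. It fell by 0.74 on the log2 scale (1.67-fold, adjusted p = 4.52e-05), or by 0.76 with the slide as a block, and 3 other probes of the gene were called in the same direction. *Tmem86a*, an enzyme of plasmalogen breakdown, had medians of 0.98 and 0.15 and fell by 0.74 (1.67-fold, adjusted p = 3.75e-05; by 0.69 with the block). Of its P17 mice, 11 of 12 were below all P12 mice. *Gnb2*, a G protein beta subunit, had medians of 0.49 and −0.31 and fell by 0.81 (1.75-fold, adjusted p = 0.000663; by 0.77 with the block). *Ppp1r14b*, an inhibitor of protein phosphatase 1, had medians of −2.07 and −2.94 and fell by 0.87 (1.83-fold, adjusted p = 0.00169; by 0.88 with the block). In the last 2 genes, 10 of 12 P17 mice were below all P12 mice. Over the 49 called genes, 27 other probes were present, of which 26 had the sign of the brightest probe, 16 were called in the same direction and 0 in the opposite one.

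The change from P12 to P17 was also set against that of 13 P12 and 13 P17 hyperoxia mice, which share no array with the normoxia groups. The difference between the changes was called for 0.424% of 55681 probes, 222 with a higher change in hyperoxia and 14 with a lower one. The rise of *Guca1a* was 1.66 in normoxia and 1.23 in hyperoxia, with a difference of −0.43 (adjusted p = 0.993), and the change of *Tubb2b* was −1.98 and −1.53, with a difference of 0.45 (adjusted p = 0.695). Those differences were not called. *Slc16a3* changed by 0.90 in normoxia and by 2.39 in hyperoxia, a difference of 1.49 (standard error 0.152, adjusted p = 2.06e-09). *Mt2* changed by 1.29 and by 3.61, a difference of 2.33 (standard error 0.246, adjusted p = 5.29e-09). For *Spc25* the order was the other way, with 1.20 in normoxia and −0.16 in hyperoxia (difference −1.36, standard error 0.229, adjusted p = 0.000232). *Cck* changed by 1.27 in normoxia and 0.36 in hyperoxia, and this difference of −0.91 was not called (adjusted p = 0.0817), but it was with the slide as a block (−0.95, adjusted p = 0.00341). In the processed table the difference of *Cck* was not called either (adjusted p = 0.856).

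**Figure D3:**
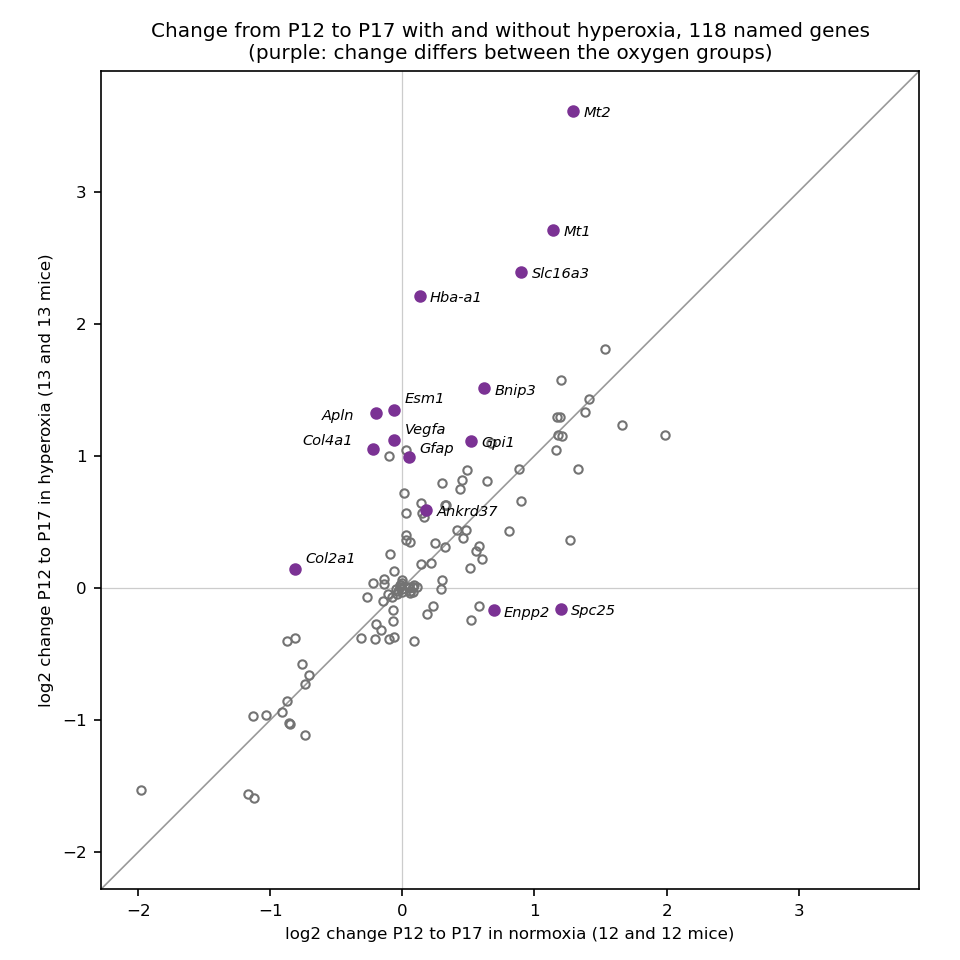
Log2 change from P12 to P17 in 12 and 12 normoxia mice (horizontal axis) against that in 13 and 13 hyperoxia mice (vertical axis) for the 118 genes picked by the rule. Each circle is 1 gene, the diagonal marks equal changes, and the 15 genes in purple had a difference between the 2 changes by limma, such as *Mt2* (1.29 and 3.61).

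The reference RNA was the same on all arrays and served as a check on labeling and hybridization. By limma, 0 of 55681 probes (0%) differed between the days in the reference channel, and 1590 had an unadjusted p under 0.05 with quantile normalization. When the reference channel was centered on the array median instead, 0 were called and 728 had an unadjusted p under 0.05.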

How the data were processed

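Retina RNA of single mice was hybridized against universal mouse reference RNA on 2-color arrays, and 24 normoxia arrays (12 P12, 12 P17) were compared. Per the file headers, the intensity values came from Feature Extraction 10.7.3.1 with protocol GE2_107_Sep09. Such 2-color protocols subtract background, detrend and normalize the dyes, but these steps were not read from the headers. The deposited log2 values were the ratio of the processed Cy3 over Cy5 signals (99.3% to 99.4% of probes equal within 0.001); the authors name GeneSpring GX without settings. Raw intensities were background-corrected (normexp, offset 50), loess-normalized within arrays, outlier spots (0.603% to 0.951% of 62976) left out and spots of a probe averaged, using limma 3.58.1, R 4.3.3 and data.table (1.17.8). Figures and promoter counts used Python 3.11.15, pandas 2.3.3 and matplotlib 3.10.9. Differences were tested with limma's moderated test, tested on simulated data, with Benjamini-Hochberg adjustment over 55681 probes and an adjusted p under 0.05. A probe was well above background where at least as many of its spots were as were not. Probes were named by RefSeq accession on GRCm38.p6 (28026 with 1 symbol), and a gene was its probe of highest mean signal. Members and the 34 lists (659 genes, 657 with a probe) were chosen with earlier results of these data known. Named genes were the 15 largest called rises and falls, the first 2 genes and up to 4 called members of each list, and the pairs *Grin2a*/*Grin2b*, *Slc12a5*/*Slc12a2*, *Scn1a*/*Scn3a*, *Opn1sw*/*Opn1mw*, *Nrl*/*Crx* and *Bdnf*/*Npas4*. *Pgk1*, *Tpi1*, *Aldoa*, *Gap43*, *Marcksl1*, *Bbc3*, *Bak1*, *Aif1*, *Gng13*, *Dnm1*, *Gabrr2*, *Dusp1*, *Grk1*, *Prdm1*, *Crym*, *Cd34*, *Bhlhe40* and *Ncan* were added after their values were seen. Of the 118 genes this rule picked, 5 that were not called are not reported here. The alternatives tried are given in the closing section.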

Additional observations from a re-analysis of the deposited data

Results flagged for a closer look

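For 15 of the 118 named genes, the change from P12 to P17 in hyperoxia (13 and 13 mice) differed from that in normoxia (12 and 12 mice) by limma's test of the difference, over 55681 probes, of which 0.424% were called, and all 15 were also called with the slide as a block. The 118 genes were picked in part for their change in normoxia, which enters this difference, so the count is a description. The differences, hyperoxia minus normoxia on the log2 scale, were as follows. For the metallothioneins they were 2.33 for *Mt2* (adjusted p = 5.29e-09) and 1.57 for *Mt1* (adjusted p = 6.67e-08). *Hba-a1*, an alpha-globin, differed by 2.08 (0.13 in normoxia and 2.21 in hyperoxia, adjusted p = 7.52e-05). The tip cell gene *Apln* differed by 1.53 (adjusted p = 2.04e-07), and *Esm1* by 1.41 (adjusted p = 0.00146). As *Esm1* was well above background on 0 P12 and 1 P17 normoxia arrays, its value of 1.41 is not exact. *Apln* was so on 7 P12 and 5 P17 normoxia arrays, so its value of 1.53 is not exact either. Among genes of glycolysis and the hypoxia response, *Slc16a3* differed by 1.49 (adjusted p = 2.06e-09), *Vegfa* by 1.18 (adjusted p = 2.11e-09), *Bnip3* by 0.89 (adjusted p = 0.00639), *Gpi1* by 0.60 (adjusted p = 0.0143) and *Ankrd37* by 0.41 (adjusted p = 0.0180). The collagen genes *Col4a1* and *Col2a1* differed by 1.28 (adjusted p = 0.000217) and 0.95 (adjusted p = 0.0134), and *Gfap* of astrocytes by 0.94 (adjusted p = 1.41e-06). The value of *Gfap* has the same limit, with signal well above background on 7 P12 and 8 P17 normoxia arrays. The change was lower in hyperoxia for *Spc25* (−1.36, adjusted p = 0.000232) and *Enpp2* (−0.87, adjusted p = 0.00376). In the authors' processed table the differences of *Col2a1* (adjusted p = 0.904) and *Gpi1* (adjusted p = 0.345) were not called.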

How the results depend on the processing

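The count of 419 differentially expressed probes from P12 to P17 became 795 in the authors' processed table, 660 with the slide as a block, 1033 with the retina channel alone, 981 with array weights, 714 in 1 fit over 6 groups and 819 without the 5 arrays that stood apart, an alternative chosen after seeing the data. It was 604 without background subtraction, 377 with an offset of 0, 532 of 25650 bright probes and 322 with trend and robust estimation. Leaving out each array in turn gave 314 to 500. Of the 49 called named genes, 36 were called in all 11 settings and 0 reversed. The 222 higher and 14 lower differences between hyperoxia and normoxia became 633 calls in the processed table (572 higher and 61 lower), 451 with an offset of 0 (432 and 19), 449 with the slide as a block (399 and 50), 716 with the retina channel alone (582 and 134) and 428 with array weights (335 and 93). The share higher was 94.1% and fell to 78.3% with array weights. The cause was not tested. No paired analysis by mouse was possible because mouse numbers are unique across groups, and the fit with the slide as a block compared the days within slides instead. Signal over background limited *Top2a*, *Fgf15*, *Ckm* and *Pax2*, whose brightest probe was well above background on no array.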
